A study of Mus musculus with 11 samples.

Results

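The RFX3 cistrome described here is the deposited list of RFX3 binding sites over input chromatin in mouse ependymal cells, mapped by chromatin immunoprecipitation and sequencing (ChIP-seq). All peaks of that list were taken, which gave 9318 of the 18008 peaks deposited for the 3 RFX factors of the series. The list rests on 2 RFX3 ChIP samples and 1 RFX3 input sample, all from wild-type OF1 mice, an outbred stock. The source was lateral-wall brain tissue, and the ependymal cells were differentiated from it ex vivo. The labels give the age as P0 and call the tissue embryonic. They mark 1 antibody against RFX3 for both ChIP samples, and the single input carries the number of the second experiment. Replicates were merged before deposit, which leaves every value below without a replicate error. The sources used here give neither the number of animals nor that of reads. A peak list holds no expression, so the labelled cell type could not be checked against its markers.

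RFX3 is a winged-helix transcription factor that binds the X-box, an inverted repeat made of a pair of short arms. It is known for switching on genes that build cilia, and mice without it have defects of ependymal, nodal and other cilia. Ependymal cells line the brain ventricles and move cerebrospinal fluid with tufts of motile cilia, which are built on basal bodies that the cell amplifies.

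The stretches below show DNA under 12 RFX3 summits that fell in promoter windows, to let the arms and their place be seen. They were picked from the 60 strongest such summits after their values were known, to include stretches with both arms, with a spelled arm, with the core and with none of these. Sequence and start sites are from RefSeq (GRCm38.p6), read on the strand of the gene, and each stretch reaches up to 35 bases either side of the summit. Capitals mark both arms with their spacer where both lie together (GTTNCC and GGNAAC, 0 to 3 bases apart), otherwise every arm spelled GTTGCC or GGCAAC, otherwise a core of GTTGC or GCAAC. Letters that fit GTTNCC or GGNAAC on their own, as in Tctn2, are not marked.
Glipr1l3: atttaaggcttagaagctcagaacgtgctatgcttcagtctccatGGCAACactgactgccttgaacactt
Glipr1l1: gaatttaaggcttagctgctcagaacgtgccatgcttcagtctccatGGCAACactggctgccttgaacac
Fez1: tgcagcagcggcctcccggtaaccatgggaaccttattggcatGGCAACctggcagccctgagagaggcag
Ttll10: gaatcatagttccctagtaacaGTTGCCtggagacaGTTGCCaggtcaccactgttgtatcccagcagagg
Hydin: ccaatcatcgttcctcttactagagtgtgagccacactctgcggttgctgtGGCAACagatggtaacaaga
Spef2: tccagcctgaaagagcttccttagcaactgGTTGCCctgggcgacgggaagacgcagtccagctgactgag
Pifo: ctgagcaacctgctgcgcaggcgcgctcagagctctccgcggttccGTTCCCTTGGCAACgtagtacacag
Tmx4: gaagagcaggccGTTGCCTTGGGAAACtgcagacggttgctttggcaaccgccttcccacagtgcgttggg
Zdhhc1: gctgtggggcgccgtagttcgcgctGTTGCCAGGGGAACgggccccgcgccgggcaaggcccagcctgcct
Mapre3: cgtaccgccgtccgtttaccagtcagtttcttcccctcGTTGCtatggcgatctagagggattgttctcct
Ccdc65: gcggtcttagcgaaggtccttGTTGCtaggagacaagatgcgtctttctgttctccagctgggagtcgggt
Tctn2: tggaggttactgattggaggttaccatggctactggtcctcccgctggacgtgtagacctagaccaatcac

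The Glipr1l3 stretch lies at chr10:112160293-112160363 on the minus strand and the Glipr1l1 stretch at chr10:112060151-112060221 on the plus strand. These neighbouring genes encode related proteins, and 65 of 69 aligned bases of the stretches match, so how reads were shared between the copies is uncertain. The Hydin stretch lies at chr8:110266913-110266983 on the plus strand, and the Tctn2 stretch at chr5:124598668-124598738 on the plus strand. The stretches with both arms lie at chr3:106001493-106001563 (Pifo), chr2:134644206-134644276 (Tmx4) and chr8:105497047-105497117 (Zdhhc1), all on the minus strand. Their peaks had −log10 q of 168.636 at Pifo, 127.165 at Tmx4 and 117.018 at Zdhhc1. These were below the 227.859 of Glipr1l3, where only a spelled arm was marked. Looser spellings of a second arm were not searched, so a stretch without both marked arms can still hold a looser repeat. The others lie at chr9:36821804-36821874 (Fez1), chr5:30814521-30814591 (Mapre3) and chr15:98708160-98708230 (Ccdc65) on the plus strand, and at chr4:156050782-156050852 (Ttll10) and chr15:9748820-9748890 (Spef2) on the minus strand. In all 12 the summit is the 36th base of the stretch, so the marked letters in Mapre3 and Zdhhc1 lie close to it. Of the 60 strongest summits in promoter windows, 7 had both arms in such a stretch, 33 had a spelled arm only, 8 had the core only and 12 had none of the marked kinds.

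RFX3 summits crowded onto transcription start sites. Start sites and strands were known for 32851 promoter windows, and 9013 of the 9318 summits lay on chromosomes that hold them. Of these, 1576 (17.5%, 95% exact interval 16.7 to 18.3) lay within 1 kb of a start, 819 (9.09%) within 100 bp and 550 (6.10%) within 50 bp. The windows covered 17491 of the 21883 protein-coding genes. These shares therefore leave out summits at starts of genes without a window, such as Cfap65, whose summit lay 14 bp from an end. All intervals here cover counting error and nothing else. Summits within 1 kb sat mostly just before the start: 958 of the 1576 (60.8%, 58.3 to 63.2) were upstream, the median position was −25 bp and the quartiles were −124 and 46 bp. Density peaked at 64.4 summits per 10 bp in the last 50 bp before the start. It was 45.2 per 10 bp in the first 50 bp after the start and 1.96 per 10 bp between 1000 and 500 bp upstream. Median −log10 q was also highest in the last 50 bp before the start, at 40.3, against 23.9 between 1000 and 500 bp upstream. The medians of fold enrichment, the authors' ratio of signal over background, were 5.54 and 5.95 in these places. The −log10 q is the authors' measure of how unlikely a peak is under background, used here only to rank peaks within their list.

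**Figure D1:**
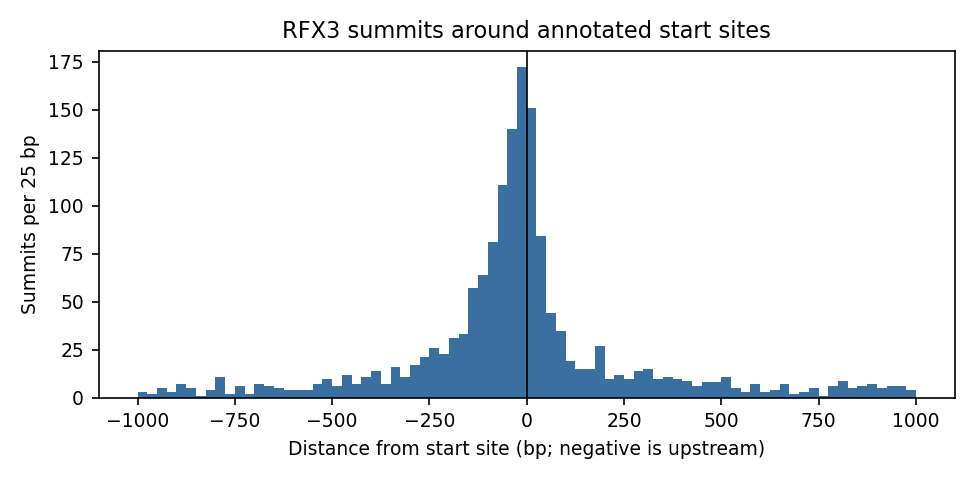
RFX3 summits within 1 kb of an annotated start, counted per 25 bp, with distance in bp and negative values upstream. Bars rise to a single narrow peak at the start, and the median lies at −25 bp.

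The X-box arm was both common in promoters with an RFX3 summit and close to the summit. Sequence was searched in promoter windows only, which gave 994 of the 9318 summits. Sequence outside these windows was not searched. An arm spelled GTTGCC or, on the other strand, GGCAAC was present in 565 of 1183 windows that held a summit (47.8%, 44.9 to 50.7), against 11.2% of windows without one and 12.5% of all 32851 windows of 300 bases. With any base in 1 place (GTTNCC or GGNAAC) the shares were 76.9% with a summit, 44.2% without and 45.3% of all windows. The shorter core GTTGC or GCAAC, which the spelled arm contains, was in 75.3% of windows with a summit, 33.7% of those without and 35.2% of all. Both arms 0 to 3 bases apart occurred in 9.55% of windows with a summit (7.94 to 11.4), 0.477% without and 0.804% of all. In this spelling, most promoters with an RFX3 summit thus held arms rather than the whole repeat, and looser repeats were not searched. Letters absent from a window say nothing about the factor.

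Read the other way, windows with the whole repeat held an RFX3 summit more often than windows with a spelled arm. Of 264 windows with both arms, 113 held a summit (42.8%), against 3.28% of windows without them. Of windows with a spelled arm, 13.7% held a summit, against 2.15% of windows without. The share differed by spacer: with 2 bases between the arms 81 of 148 windows held a summit (54.7%), with 3 bases 11 of 20, with 1 base 23 of 89 (25.8%) and with 0 bases 0 of 9. Groups of 20 and 9 windows are small. Several windows can belong to 1 gene and 1 summit, since the 1183 windows shared 994 summits, so windows are not independent.

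Among the 474 summits with a spelled arm in their window, the median distance from the summit to the nearest arm was 11.5 bp, and 352 (74.3%) had one within 25 bp. For the core GTTGC the median was 13.0 bp. Other common promoter words, both strands searched, did not gather there in the same way. The GC box GGGCGG, in 54.7% of windows with a summit and 35.7% of all, lay a median of 45.5 bp from the summit, with 25.7% within 25 bp. The CCAAT box, in 43.1% of windows with a summit and 37.4% of all, lay 59.0 bp away, and TTGGC, in 57.2% and 46.7%, lay 57.0 bp away. Windows with a summit were richer in G and C (median 59.3%) than windows without (52.7%). Within 4 classes of GC content the spelled arm was in 41.1% to 51.1% of windows with a summit and 8.13% to 12.7% of windows without.

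**Figure D2:**
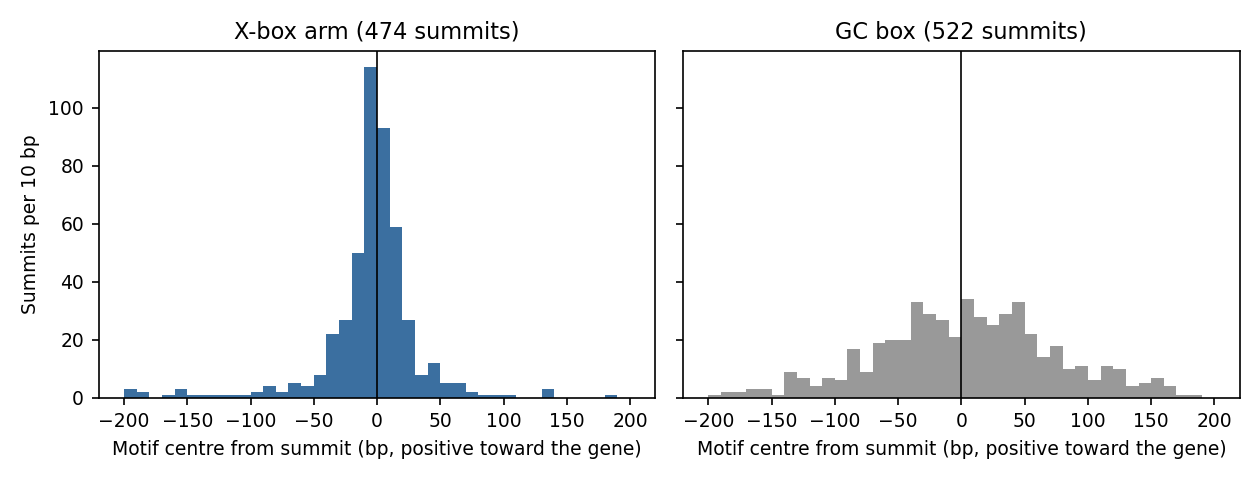
Distance in bp from the summit to the nearest copy of a motif in the promoter window, per 10 bp, for the spelled X-box arm (left, 474 summits) and the GC box GGGCGG (right, 522 summits). The arm piles up at the summit, with 74.3% within 25 bp, and the GC box spreads over the window, with 25.7% within 25 bp.

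Stronger promoter peaks held the arm more often. When the 994 summits were split into 5 equal groups by −log10 q, the share with a spelled arm in the window was 68.3% in the strongest, then 52.8%, 46.7% and 34.7%, and 35.9% in the weakest. The whole repeat did not fall in the same steady way, with 13.6%, 9.05%, 9.05%, 6.53% and 10.1%. The median −log10 q was 44.2 at summits with a spelled arm and 29.5 at summits without. Their median fold enrichment was 5.68, against 4.79. Fold enrichment is the authors' ratio of signal in the peak over background.

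Most RFX3 sites were nonetheless far from the ends of protein-coding genes. A summit within 1 kb of either annotated end of 1 of 21883 protein-coding genes is called a gene-end summit here. There were 1488 such summits (16.0%, 15.2 to 16.7), while 4019 (43.1%, 42.1 to 44.1) lay deeper inside a gene and 3811 (40.9%, 39.9 to 41.9) between genes. The median distance from a summit to the nearest end was 23129.5 bp, 1839 summits (19.7%) were over 100 kb away and the farthest was at 2131299 bp. Some of the sites away from ends were at other annotated starts, with 249 within 1 kb of a long non-coding RNA start and 217 at internal starts of coding genes. The bound end of a gene was nearly always its start. Of 1418 genes with a gene-end summit and a known strand, 1282 (90.4%) had it at the 5′ end, 136 at the 3′ end only, and of those 136, 33 had the summit within 1 kb of another start. Gene-end summits gave 1738 genes, which is 7.94% of the 21883 and the background for the gene groups below. By the narrower promoter window, 915 of 17491 coding genes with a window (5.23%) held a summit inside it.

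Place changed with peak strength. When the list was cut into 10 equal parts by −log10 q, the strongest 932 peaks differed from the weakest 931. Among the strongest, 30.4% of summits were at a gene end, 39.4% inside genes and 30.3% between genes. Among the weakest the shares were 5.91%, 45.1% and 49.0%. Summits within 100 bp of a start made up 20.9% of the strongest part and 2.68% of the weakest.

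**Figure D3:**
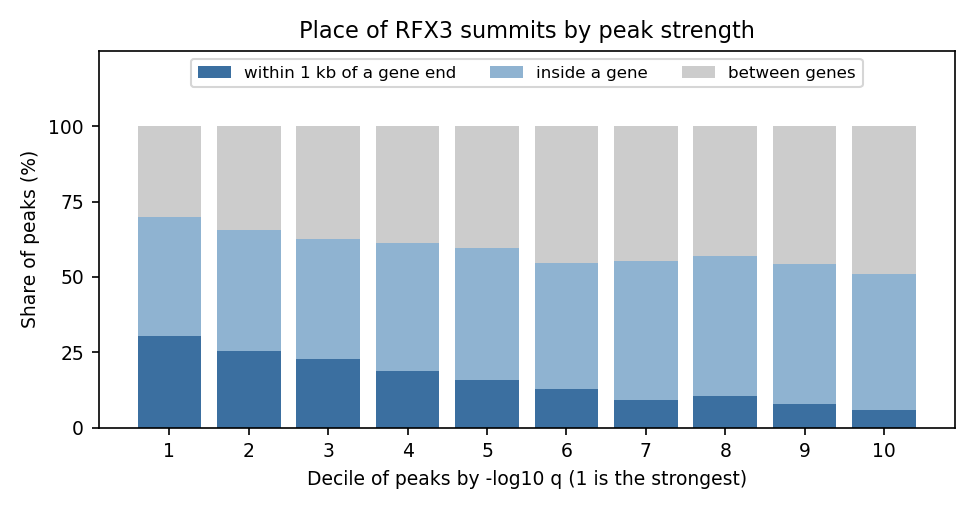
Share of RFX3 summits (%) at a gene end, inside a gene and between genes, for 10 equal parts of the list ranked by −log10 q, strongest at left. The gene-end share is 30.4% in the first part and 5.91% in the last.

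The authors' other measure of strength gave the opposite picture. At gene ends the median −log10 q was 31.6, against 18.7 elsewhere, but the median fold was 4.91, against 7.84 elsewhere. By distance, −log10 q was 35.1 within 100 bp of an end and 16.3 beyond 500 kb, while fold was 4.84 within 100 bp and 9.06 beyond 500 kb. Ranked by fold, 4.40% of the top 10% lay at gene ends, against 50.6% of the bottom 10%, and 50.9% of the 903 peaks with a fold under 4 were at gene ends. Which peaks count as strong at promoters therefore depended on the measure used.

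Many fold and −log10 q values repeat exactly, and repeats were rarer at gene ends. Peaks that shared both values with another peak made up 28.8% of gene-end peaks (26.5 to 31.2), against 59.4% inside genes and 67.2% between genes. The most frequent pair, a fold of 7.06 with a −log10 q of 9.69, belonged to 230 peaks, and the next in steps of fold were 7.45 with 216 peaks and 7.84 with 155 peaks. With repeated values left out, the fold was still lower at gene ends (median 5.02 in 1059 peaks, against 7.76 in 2880 elsewhere) and −log10 q still higher (36.3, against 27.6). Across all 9318 peaks the measures were related only in part, with a Spearman's rho of 0.471 between fold and −log10 q and 0.565 between width and −log10 q. Both measures share the same reads.

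**Figure D4:**
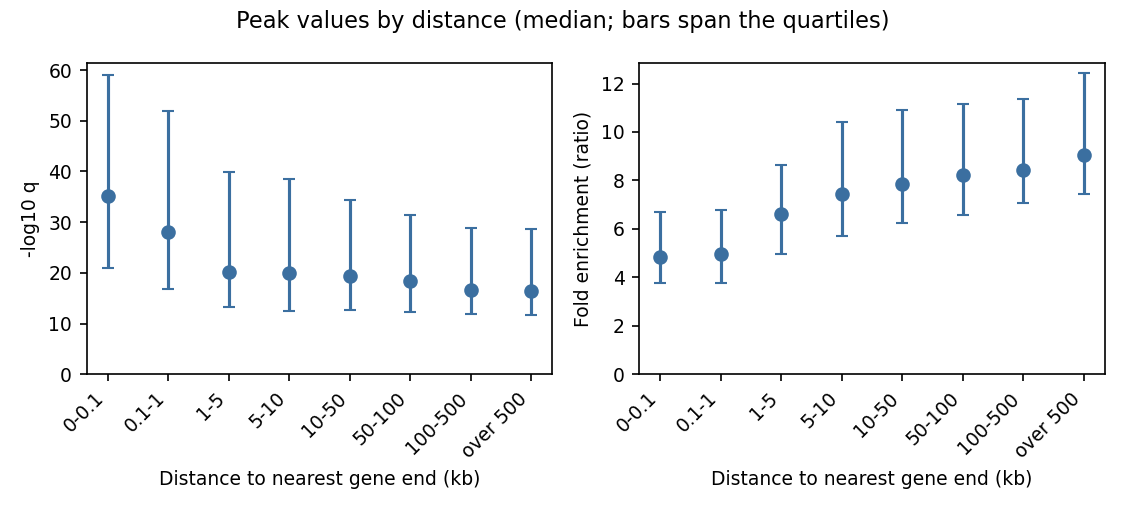
Median −log10 q (left) and median fold enrichment, a ratio (right), of RFX3 peaks by distance in kb to the nearest protein-coding gene end; bars span the quartiles of peaks. The −log10 q is 35.1 in the nearest class and 16.3 in the farthest, and the fold is 4.84 in the nearest class and 9.06 in the farthest.

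The genes with the strongest gene-end peaks came from genes of varied function. Cfap65, a gene of the sperm and cilium axoneme on chromosome 1 (74902071-74935626, GRCm38), had its summit 14 bp from an end, at 237.182 on the −log10 q scale and 40.0-fold enrichment. Glipr1l3 followed with 227.859 and the second highest fold of the list, 58.8, at a summit 1 bp before its start. Mapre3, which encodes a protein of growing microtubule ends, had 199.042 at 85 bp before the nearest start. Fez1, an adaptor for kinesin transport, had 193.789 at 52 bp before a start that lies inside the annotated gene. Ttll10, a tubulin-modifying polyglycylase, had 173.223 with its summit on the start itself. The same rule also named 1110051M20Rik (174.381), Ssbp2, a single-stranded DNA-binding protein gene (161.354), Sik1, a salt-inducible kinase gene (159.313), and Sema4b, a semaphorin gene (157.646).

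A fraction of gene-end summits lay at the ends of neighbouring genes at once, most often between divergent starts. Of the 1488 gene-end summits, 271 (18.2%, 16.3 to 20.3) lay within 1 kb of ends of more than 1 gene. The strand of both genes was known for 201 of them, and 158 of those (78.6%, 72.3 to 84.1) were head to head, with ends a median of 112 bp apart. A further 36 joined a start to a 3′ end and 7 joined 3′ ends. Pafah1b2 and Sik3 had the strongest head-to-head summit, 20 and 150 bp from their ends, with −log10 q of 124.509; Abhd4 with Dad1 (110.973) and Gemin6 with Srsf7 (106.816) followed. The strongest shared summits of any arrangement were start to 3′ end, at 1700094D03Rik and 4933434E20Rik (216.716), Orai3 and Fbxl19 (169.707), and Pnma1 and Mideas (160.23). A count of genes takes in both members of such pairs, and which of them RFX3 acts on was not tested.

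Ciliary genes had an RFX3 summit at an end far above the 7.94% of all genes. Of 211 genes in 12 ciliary groups, 129 did (61.1%, 54.2 to 67.8). Their summits were close to starts: all 111 with a known strand had the summit at the 5′ end, and the median distance to the end was 46 bp, against 159 bp for the other 1609 genes with a gene-end summit. Their median −log10 q was 47.9, against 31.3 for the other genes, and their median fold 5.12, against 4.81. Among genes with a gene-end summit, ciliary genes took 12 of the first 100 by −log10 q and 58 of the first 500, against 129 of all 1738. Of their 110 promoter windows with a summit, 57.3% held a spelled arm, against 46.8% of 1073 windows of other genes with a summit. Of their 99 windows without a summit, 22.2% held one, against 11.2% of other windows without a summit. Both arms together were in 8.18% of ciliary and 9.69% of other windows with a summit. Without a summit they were in 3.03% of ciliary and 0.469% of other windows. The groups were drawn up with earlier results of these data known, so the counts are a description.

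**Figure D5:**
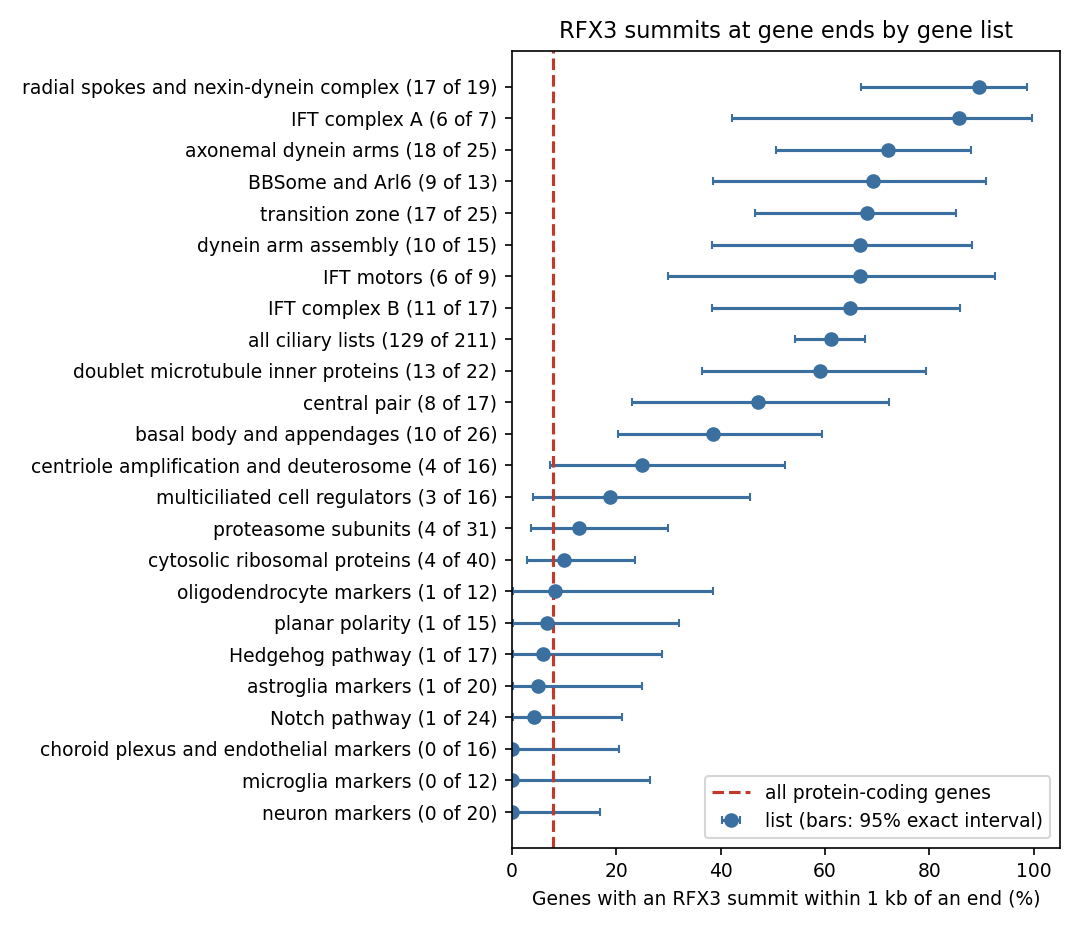
Share (%) of the genes in each group with an RFX3 summit within 1 kb of an end; points are shares with 95% exact intervals and the dashed line is the 7.94% of all protein-coding genes. The groups of the axoneme, intraflagellar transport and transition zone lie above the line with their whole intervals, and the marker groups of other cell types hold 0 or 1 such gene each.

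Intraflagellar transport carries building material along the cilium. In complex A, the retrograde particle, 6 of 7 genes had a gene-end summit, led by Ift122 (−log10 q of 89.4) and Wdr35 (61.3), and Ttc21b did not. In complex B, the anterograde particle, 11 of 17 did, led by Ttc26 (87.8, 16 bp from its end), Traf3ip1 (76.3) and Ift52 (67.3). Ift80 had no summit within 10 kb, and that of Hspb11 lay 9717 bp outside the gene. The summit of Ift74 (40.8) lay 16 bp before a start inside the annotated gene. Of 9 motor genes 6 did, led by the dynein-2 light intermediate chain gene Dync2li1, whose summit lay 0 bp from the end with 128.811. Dynlt2b, also asked for as a motor gene, was not matched under that name and is counted below as Tctex1d2. Dync2h1, the dynein-2 heavy chain gene, was not counted, since its summit (100.586) lay 1256 bp from the outer end, but it was 8 bp after another annotated start of the gene.

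Of 13 genes of the BBSome group, which sorts ciliary membrane proteins, 9 had a gene-end summit. Arl6 (96.6), Bbs1 (95.7) and Bbs12 (89.1, 48 bp after a start of its neighbour Cetn4) led, while Mkks, Bbs2 and Bbs10 lacked one. In the transition zone, the gate at the ciliary base, 17 of 25 did. The tectonic genes Tctn2 (131.638, 46 bp) and Tctn1 (95.4, 90 bp) led, followed by Mks1 (88.2) and Tmem218 (72.5). Tmem67, Anks6 and Invs had no gene-end summit, although Tmem67 had one 2028 bp inside the gene (56.7).

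In the motility apparatus the share ran from 8 of 17 to 17 of 19 genes by group. Radial spoke and nexin-dynein regulatory complex genes, which couple the doublets of the axoneme, had a gene-end summit in 17 of 19 cases, with Rsph4a (137.747, fold 28.5), Ccdc65 (121.254), Ccdc39 (93.8) and Nme5 (82.7) in the lead. Iqcd and Rsph3a were without one, and Rsph3a has a close copy, Rsph3b, that had one. Of 25 genes listed for dynein arms, the motors of ciliary beating, 18 did. Dnah12 (90.8, fold 29.4) led, followed by Tctex1d2 (73.4), Wdr63 (66.8) and Ccdc151 (63.2). Tctex1d2 is another name of Dynlt2b, a dynein-2 light chain gene that belongs with the motor genes above rather than the arms. Ccdc114 and Dnah3 had no summit within 10 kb, while Dnah2 had 6, the strongest 2553 bp inside the gene. Of 15 genes for cytoplasmic assembly of those arms 10 did, led by Lrrc6 (100.78), Dnaaf3 (86.8) and Zmynd10 (77.4).

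Of 22 genes for proteins inside the doublet microtubules, 13 had a gene-end summit, with Cfap20 (103.394), Enkur (88.9) and Cfap52 (86.6) first. The tektin gene Tekt2 had no summit within 10 kb, and that of Cfap161 (80.8), 3153 bp from the outer end, lay 33 bp before an annotated start of the gene. In the central pair 8 of 17 genes had one, headed by Hydin (135.108, 20 bp) and Spef2 (120.405, 13 bp), although 16 of 17 had a summit within their span extended by 10 kb. Several of these others were at inner starts: the summit of Cfap221 (81.9) lay 1 bp after one and that of Cfap74 (62.3) 35 bp before one. The summit of Cfap54 (117.793) lay 1848 bp inside the gene. When a summit within 1 kb of any annotated start of the gene was counted too, a count added after the data were seen, the central pair had 12 of 17 genes, the doublet proteins 17 of 22, complex B 13 of 17 and the regulators described below 7 of 16. All 12 ciliary groups then had 147 of 211 (69.7%), against 8.97% of all genes.

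The base of the cilium and the machinery that multiplies centrioles stood lower. Of 26 basal body and appendage genes 10 had a gene-end summit, led by Cep162 (63.5), Cetn2 (53.4), Odf2 (50.4) and Fbf1 (45.5). Cntrl and Ninl had no summit within 10 kb. In the group for centriole amplification 4 of 16 did (interval 7.27% to 52.4%, which includes the 7.94% background): Nek2 (61.6), Spice1 (47.9), Deup1 (41.7) and Ccno (31.6). Cep152, Plk4 and Sass6, core genes of centriole duplication, had no summit within 10 kb.

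Among regulators of multiciliated cells, 4 had a summit at an annotated start that is not an outer end of the gene and none at the ends. At outer ends, 3 of 16 had a summit: Foxj1, a master regulator of motile cilia (101.917), Rfx2 (66.4) and E2f5 (30.7). With the span extended by 10 kb, 11 of 16 did, against a background of 25.3% of all genes. The RFX3 gene itself held 3 summits, the strongest (119.901) 78 bp after an annotated start that lies inside the gene. The summit of Rfx1 (116.8) lay 2 bp after such a start, and that of Six3 (41.6) 79 bp before one. Rfx2 held 4 summits and Rfx4 held 3. Gmnc, which starts the multiciliated programme, had a summit inside the gene, 2623 bp after the nearest annotated start, with 109.738 and a fold of 27.5. Mcidas was counted through the summit of its neighbour Ccno. The 5 without any, named after their values were seen, were Ankrd26, E2f4, Myb, Rfx5 and Rfx7.

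For genes of other cell types the counts at ends could not be told from the 7.94% of all genes, which lies inside every interval. At ends, 0 of 20 neuron markers (interval 0 to 16.8), 0 of 12 microglia markers, 0 of 16 choroid plexus and endothelial markers, 1 of 12 oligodendrocyte markers (Mag, at its 3′ end) and 1 of 20 astroglia markers (Atp1b2) had a summit. In the extended span, where the background was 25.3%, the astroglia group had 12 of 20, at a median gene length of 10.1 kb against 17.2 kb for all genes. Slc1a2, the glial glutamate transporter gene, had 5 summits, the strongest with 104.265 and a fold of 32.5. Nfix, a nuclear factor I gene, had 111.686 at 9868 bp outside the gene, and the water channel gene Aqp4 had 85.0 inside it. The summit counted for Gfap was that of its neighbour Ccdc103. Neuron markers had 10 of 20 in the span at a median length of 70.9 kb, with Map2 (95.4) and Gria1 (80.1) as the strongest, and microglia markers 1 of 12.

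Signalling genes also had counts at ends near the 7.94% background. Planar polarity genes, which orient cilia, had a gene-end summit in 1 of 15 cases (Prickle1, 12.2) and a summit in the extended span in 8 of 15, against 25.3% of all genes, at a median length of 35.4 kb. Vangl2 had 157.761 at 10197 bp inside the gene, Fzd3 102.564 with a fold of 32.2, and Daam1 held 6 summits. In the Notch pathway 1 of 24 had one at an end (Numb, 31.6) and 14 of 24 in the span, at a median length below that of all genes, with Notch4 (80.3, 1564 bp inside), Id2 (78.7, 2847 bp outside) and Lfng (64.2, 1545 bp inside). Hedgehog pathway genes had 1 of 17 at an end (Iqce, 31.8) and 6 of 17 in the span, near the background, at a median length of 48.0 kb. The members named for summits inside genes or at inner starts were chosen after their values were seen. For housekeeping genes the counts were 4 of 40 ribosomal protein genes and 4 of 31 proteasome genes at ends, and for olfactory receptor genes 1 of 1110 (0.0901%).

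Sites remote from genes included the strongest of the list. Of the 100 strongest summits, 27 were at gene ends, 39 inside genes and 34 between genes, and 13 were over 100 kb from any coding end. The first peak of all (262.91, fold 45.4) lay 286759 bp from the glutamate receptor gene Grin2a on chromosome 16 and 1170 bp from the start of the non-coding gene Gm41418. Others over 100 kb away were nearest to Abcc12 (240.068, 114426 bp), Pi15 (194.193, 152403 bp) and Galnt13 (191.111, inside the gene). The highest fold of the list, 59.4, was 3815 bp from Tmc3. The lowest, 1.57, was in the gene desert near Lrrc4c on chromosome 2, 1035512 bp from its end. Regions prone to artefact signal were not filtered out here, so whether this peak is a true site was not tested. Inside genes, 3109 summits could be placed along a gene of known strand, and the shares in 5 equal parts of the gene were 21.4%, 21.7%, 20.6%, 18.8% and 17.5% from the 5′ end on. Genes with such summits were long, with a median of 91.3 kb in 2587 genes, against 17.2 kb for all genes.

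RFX3 sites were mostly solitary. Neighbouring summits lay a median of 117442 bp apart over 9298 gaps, with 262 bp the smallest and 13392345 bp the largest. When summits within 10 kb were linked, 7796 (83.7%) stood alone, 616 pairs formed, and 90 clusters of 3 or more held 290 summits (3.11%). The largest cluster, of 6 summits over 21.3 kb, lay inside Rnf216, a ubiquitin ligase gene, with −log10 q up to 48.0. At Cwc22, a splicing factor gene on chromosome 2, 5 summits lay within 11.5 kb. A second cluster of 5 summits, over 13.3 kb, lay 28106 bp outside the gene. The highest −log10 q of both was 26.8. Whether the copy number of this region bears on these summits was not tested. The cluster at Prr7 and Dbn1, with 4 summits over 19.1 kb, was the strongest of the first 10, its −log10 q between 46.2 and 100.585. Ccdc190, Npas3, Dpf1, Daam1 and Ralgds each held clusters of 4. The clusters with most summits were thus not those with the strongest.

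A small number of summits lay very close together. Of 148 pairs within 1 kb, 15 had both summits at coding gene ends and 128 had neither, while 16.0% of all summits were at such ends. The closest were at Pcnx4 (262 bp), between Lrriq3 and Fpgt (267 bp) and inside Dennd1a (286 bp). The longest gaps were on chromosome X, from near Akap17b to near Klhl13 (13392345 bp, spanning 59 coding genes) and from Diaph2 to Nap1l3 (8075802 bp). Counting all summits in a gene and 10 kb around it, Asic2, an acid-sensing channel gene of 1088 kb, and Cwc22, of 65.2 kb, led with 13 each. Per 100 kb of the gene and its 10 kb flanks together, Cwc22 had 15.3 and Asic2 1.17. Ptprn2 and Rora had 11 each, and Npas3 and Rtn1 10 each. Most genes, 16342, had no summit in this span and 102 had 5 or more.

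Chromosomes differed in density. Chromosome 11 had 4.81 summits per Mb and chromosome 9 had 4.72, against 1.11 on chromosome X and 0 peaks on chromosome Y. The autosomes lay between 3.17 and 4.81 per Mb. The densest single megabases held 22 summits each. On chromosome 9, at 108 Mb, the megabase with Dag1 and Wdr6 held 40 coding genes and 10 of its summits were at gene ends, while on chromosome 2, at 77 Mb, the megabase with Cwc22 held 4 genes and 1 of its summits was at an end.

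Non-coding genes had gene-end summits less often than coding genes. Of 12727 long non-coding RNA genes 575 did (4.52%, 4.16 to 4.89), and 409 of these were not through a summit at a coding end. For microRNA genes it was 24 of 1228 (1.95%) and for pseudogenes 57 of 9944 (0.573%). Among long non-coding genes with a summit away from coding ends the strongest were Gm29461 (191.179, fold 51.4, 94547 bp from Pam) and Gm39675 (147.957, fold 39.1). Among microRNA genes Mir92b led (128.716), with its summit also at the end of Thbs3, while Mir6976 (98.2) and Mir132 (79.5, 12 bp from its end) had no coding end within 1 kb.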

How the data were processed

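The data are the deposited narrow-peak list of RFX3, in which the authors had merged replicates; the sources used here do not give how a peak qualified as reproducible. GRCm38 is the build in the submitters' processing notes, which also list, with no roles, MACS2 2.0.10.20130520, Bowtie 0.12.7 and CASAVA 1.8.2. Per the file's values, the deposited score is the whole part of 10 times the −log10 q (9318 of 9318 peaks). The deposited fold enrichment was read as a ratio, and the deposited −log10 q is the authors' q-value after a −log10 transform. Summits were placed by the deposited offset within each peak. A further column (1), the −log10 p, was not used.

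Summits were joined to a RefSeq gene table (GRCm38.p6; 21883 protein-coding genes on assembled chromosomes) and to RefSeq promoter windows (250 bases before to 50 after a start, 32851 windows), which supplied strands; genes without a window have no strand here. Of 17491 coding genes with a window, 915 (5.23%) held a summit inside it. Gene groups matched 1544 of 1555 names. Members, groups and the rule for naming genes (the strongest, farthest, densest and most shared sites, and the strongest members of each group with up to 3 without a summit) were chosen with earlier results of these data known. Genes with near-identical copies are uncertain. With replicates merged, no test between samples was possible, so shares carry 95% exact Clopper-Pearson intervals that cover counting only, and depth is unknown. Other windows, thresholds, link distances and gene sets were tried. The joins and the motif search were tested on simulated data. Python 3.11.15, pandas 2.3.3 and scipy 1.17.1 were used.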

Additional observations from a re-analysis of the deposited data

How the results depend on the processing

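Gene-end summits (16.0% of all) made up 13.3% with a 500 bp window, 26.5% with 5 kb, 22.5% in the better-scoring 50% of peaks, 12.2% with a fold of at least 4 and 21.4% against all RefSeq genes. Genes with a gene-end summit numbered 3010 at 5 kb and 1180 to 1962 in the other settings, against 1738; ciliary genes numbered 109 to 155, against 129. In the better-scoring 50%, 40.9% of summits lay inside genes and 36.7% between genes, and against all RefSeq genes 48.0% and 30.6%. The median distance to an end was 16574 bp in the better-scoring 50% and 8754 bp against all RefSeq genes. Median spacing was 229660 bp in the better-scoring 50% and 134310 bp with a fold of at least 4. Clusters numbered 38 at a 5 kb link, 202 at 20 kb and 86 without 1 dense megabase of chromosome 2, against 90. The median −log10 q at gene ends minus elsewhere (12.9) was 14.8 with a 500 bp window, and the difference was −2.93 when fold replaced −log10 q, so its direction reversed; the cause was not tested. The share of windows with a spelled arm (47.8%) was 52.2% in the better-scoring 50% and 76.9% with any base in 1 place. All RefSeq genes for the gene-end share and the median distance, inner starts, the arm with any base and the omitted megabase were chosen after seeing the data. No paired analysis was possible because the list holds no values per replicate. Depth is unknown, so weak sites below the authors' threshold are not described.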
